A study of Mus musculus with 9 samples.

Results

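Olfactory receptor genes lie in large tandem arrays, and peaks of the histone mark H3R2me2a were counted in the arrays of mouse chromosomes 7 and 9. The members were all peaks of the 6 deposited lists that started in chr7:102400001-108900000 or chr9:37600001-39600000 (build mm10). The 5 Mb on either side of each interval served as flanks. The intervals span 8.5 Mb and held 5840 of the 1548240 listed peaks. They contain 262 protein-coding Olfr genes, 193 on chromosome 7 and 69 on chromosome 9, besides 62 other protein-coding genes.

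The libraries were chromatin immunoprecipitations with an EPIGENTEK antibody to H3R2me2a, 2 per genotype, from cells labelled mouse bone marrow that the design text of the series calls leukemia cells. The groups were cells labelled Prmt6KO, cells labelled Igf2bp2KO and WT cells, and all were grown with interleukin 3, interleukin 6 and stem cell factor. The labels do not say how the alleles were made or how the leukemia arose. They also leave unsaid whether replicates are separate animals, cultures or repeat preparations, so p-values measure only the spread between these libraries, which may be technical. The 3 input libraries were not analysed here, and the files hold no RNA level by which the cell type could be checked.

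H3R2me2a is asymmetric dimethylation of arginine 2 of histone H3, written mainly by the methyltransferase PRMT6, and it is known to oppose trimethylation of the neighbouring lysine 4. IGF2BP2 is an RNA-binding protein that binds m6A-modified transcripts. Olfactory receptors are G-protein coupled receptors of nasal sensory neurons, each of which expresses a single receptor gene. In most other tissues, blood included, the arrays are silent and packed as heterochromatin. The array of chromosome 7 surrounds the beta-globin genes and holds the class I (fish-like) receptors there, with class II receptors farther along the chromosome. All receptors of chromosome 9 are class II.

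The start regions of 3 receptor genes are printed as examples of sequence at peaks of both Prmt6KO libraries. They do not describe the sequence under the other peaks. Of the Olfr genes of the intervals, 228 had a start window of 300 bases in the RefSeq promoter table (GRCm38.p6, which is mm10). In that window 5 had a peak of both Prmt6KO libraries, and 0 had one of both Igf2bp2KO or of both WT libraries. The share of other windows hit in both libraries was not computed at this length. Of the 32391 other windows, single libraries hit 14.0% and 4.91% in Prmt6KO, 0.0525% and 0.0370% in Igf2bp2KO, and 1.90% and 1.13% in WT. Of the 228 receptor windows they hit 17.5% and 11.8% in Prmt6KO, 0% and 0% in Igf2bp2KO, and 2.63% and 4.82% in WT. The 3 with the longest stretch under peaks of both Prmt6KO libraries are printed 5′ to 3′ on the gene's strand, with that stretch in capitals. They are Olfr494 (chr7:108367242-108367541, plus strand), Olfr876 (chr9:37803639-37803938, plus strand) and Olfr695 (chr7:106716296-106716595, minus strand).
Olfr494: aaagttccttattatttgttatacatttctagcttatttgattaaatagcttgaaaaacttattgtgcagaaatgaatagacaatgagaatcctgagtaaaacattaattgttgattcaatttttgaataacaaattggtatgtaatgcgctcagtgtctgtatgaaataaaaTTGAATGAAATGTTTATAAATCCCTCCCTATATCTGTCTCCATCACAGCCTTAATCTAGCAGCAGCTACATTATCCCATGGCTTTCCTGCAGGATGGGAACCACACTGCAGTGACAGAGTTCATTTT
Olfr876: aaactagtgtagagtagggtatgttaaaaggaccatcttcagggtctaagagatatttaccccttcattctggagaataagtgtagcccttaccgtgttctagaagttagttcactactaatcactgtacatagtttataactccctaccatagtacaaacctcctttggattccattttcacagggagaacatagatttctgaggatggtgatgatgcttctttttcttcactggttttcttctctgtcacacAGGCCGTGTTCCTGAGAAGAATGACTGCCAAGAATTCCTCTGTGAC
Olfr695: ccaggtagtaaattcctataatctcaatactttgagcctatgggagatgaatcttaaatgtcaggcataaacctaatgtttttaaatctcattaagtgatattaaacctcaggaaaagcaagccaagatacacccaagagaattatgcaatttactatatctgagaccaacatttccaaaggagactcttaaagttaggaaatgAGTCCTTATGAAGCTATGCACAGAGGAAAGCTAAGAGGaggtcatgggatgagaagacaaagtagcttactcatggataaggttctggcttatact
The peaks over these windows were low. At Olfr494 the summits held 3 and 4 fragments in Prmt6KO replicates 1 and 2, at Olfr876 they held 3 and 5, and at Olfr695 they held 3 and 5. WT replicate 1 had a peak in the Olfr876 window and no WT library had one in the other 2. The whole windows are rich in A and T, with a GC content of 33% at Olfr494, 40.7% at Olfr876 and 36.7% at Olfr695. The GC content of the stretches in capitals alone was not computed. Over all 228 receptor windows the median GC content was 36.3%, against 53% over the 32391 other windows. The motif TAATTA, the core of homeodomain sites, was in 14.5% of the receptor windows and 5.19% of the others, read on both strands. The motif CCCNNGGG, the core of the Ebf sites known from receptor promoters, was in 3.07% and 13.8%. Of the 262 receptor genes, 82.1% have a length that is a multiple of 3, as models of coding sequence alone would. Many start windows may thus lie at the start of the coding sequence, and these shares do not describe receptor promoters. None of the 3 printed windows held either motif.

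Some properties of the lists bear on every value. The lists held 814517 and 431638 peaks in Prmt6KO, 1028 and 1261 in Igf2bp2KO, and 165304 and 134492 in WT. Sequencing depth is unknown, and the background in fragments recovered from the authors' fold enrichments is the measure of it that the lists carry. It was 0.736 and 1.21 fragments in Prmt6KO, 1.45 and 1.34 in Igf2bp2KO, and 1.46 and 1.44 in WT. A fragment is 1 step of a list's pileup values, and for Igf2bp2KO, whose step is not 1, its values in fragments rest on that reading. The smallest summits had 2 and 3 fragments in Prmt6KO, 8 and 7 in Igf2bp2KO, and 4 and 4 in WT, so the lists differ in what they could contain. On the sex chromosomes the WT replicates were unlike. Relative to chromosomes 1 to 19, X had a peak density of 0.182 in replicate 1 and 1.20 in replicate 2, and Y had 0.376 in replicate 1 and 0.00876 in replicate 2. The main differences from WT are given also without WT replicate 1. Olfr, Trim and Gvin1-like genes are close paralogs, and the sources used here do not say whether reads that fit several copies were kept.

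The first question was whether the receptor intervals carried more H3R2me2a peaks than the chromosome around them, and whether that differed without Prmt6. In WT they did, on both chromosomes and in both libraries. In Prmt6KO the replicates differed: replicate 2 had an excess close to that of WT, and replicate 1 had none. The intervals held 323 and 206 peaks per Mb in Prmt6KO, against 88.0 and 70.7 in WT. Their flanks held 324 and 142.5 peaks per Mb in Prmt6KO, against 56.25 and 36.85 in WT. The density in the intervals was therefore 0.997 times that of the flanks in Prmt6KO replicate 1 (95% interval 0.953 to 1.04) and 1.44 times in replicate 2 (1.36 to 1.53). It was 1.56 times that of the flanks in WT replicate 1 (1.42 to 1.72) and 1.92 times in WT replicate 2 (1.72 to 2.14). These intervals are exact for the counts and cover counting error only.

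On the log2 scale the ratio averaged 0.26 ± 0.38 in Prmt6KO and 0.79 ± 0.21 in WT (SD, n = 2 each). The difference was -0.53, with a two-sided exact permutation p of 0.333, the smallest that 2 libraries against 2 allow. Both Prmt6KO values lay below both WT values, and the gap between the Prmt6KO replicates was wider than that between Prmt6KO replicate 2 and WT replicate 1. Without Prmt6KO replicate 1 the difference was -0.26, without Prmt6KO replicate 2 it was -0.80, and without WT replicate 1 it was -0.68. With each list cut to its 133960 peaks of smallest p, the groups overlapped. The log2 ratios were then 0.02 and 0.65 in Prmt6KO, against 0.61 and 0.94 in WT.

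**Figure D1:**
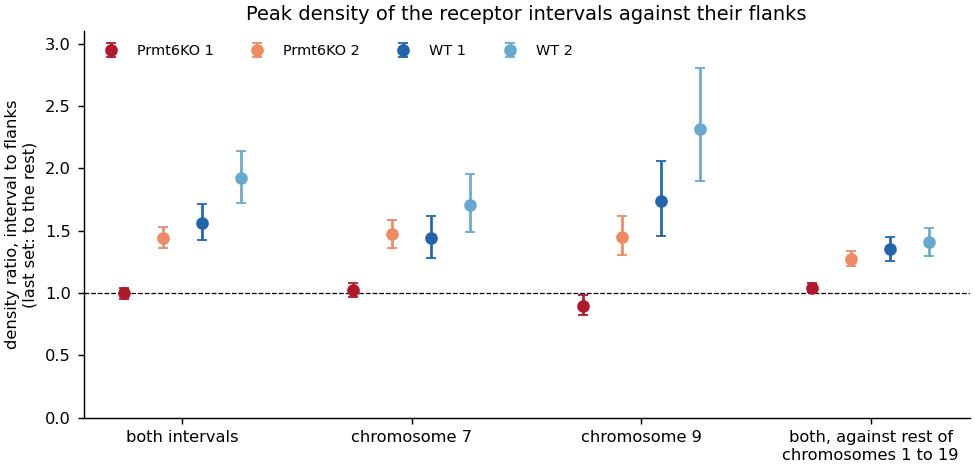
Peak density in the receptor intervals divided by that of the flanks, per library, for both intervals together and for each chromosome, and at the right divided by that of the rest of chromosomes 1 to 19. Points are single libraries and bars are exact 95% intervals for counting error; Prmt6KO replicate 1 sits at 0.997 for both intervals and the other libraries between 1.44 and 1.92.

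The interval of chromosome 9 showed the wider difference. There the ratio to the flanks was 0.899 and 1.45 in Prmt6KO, against 1.74 and 2.31 in WT, and the groups did not overlap. The log2 difference was -0.81 (two-sided exact permutation p = 0.333, n = 2 each), and -1.02 without WT replicate 1. On chromosome 7 the ratio was 1.03 and 1.47 in Prmt6KO, against 1.44 and 1.71 in WT, so that Prmt6KO replicate 2 lay above WT replicate 1. The log2 difference there was -0.35 (two-sided exact permutation p = 0.667, n = 2 each), and -0.48 without WT replicate 1.

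Part of each ratio came from the flanks. Relative to the rest of chromosomes 1 to 19, the intervals had a density of 1.04 and 1.28 in Prmt6KO, against 1.35 and 1.41 in WT. The log2 difference on this scale was -0.26 (two-sided exact permutation p = 0.333, n = 2 each), and -0.29 without WT replicate 1. The flanks on the same scale had 1.05 and 0.884 in Prmt6KO, against 0.863 and 0.733 in WT. The receptor intervals were thus above the rest of the genome in every Prmt6KO and WT library, by 1.04 to 1.41 times, and the flanks were below it in all but Prmt6KO replicate 1. The flanks were not free of receptors: they held 28 Olfr genes, 26 of them just past the chromosome 9 interval, where the relative density was 1.06 and 1.48 in Prmt6KO, against 1.08 and 1.53 in WT.

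**Figure D2:**
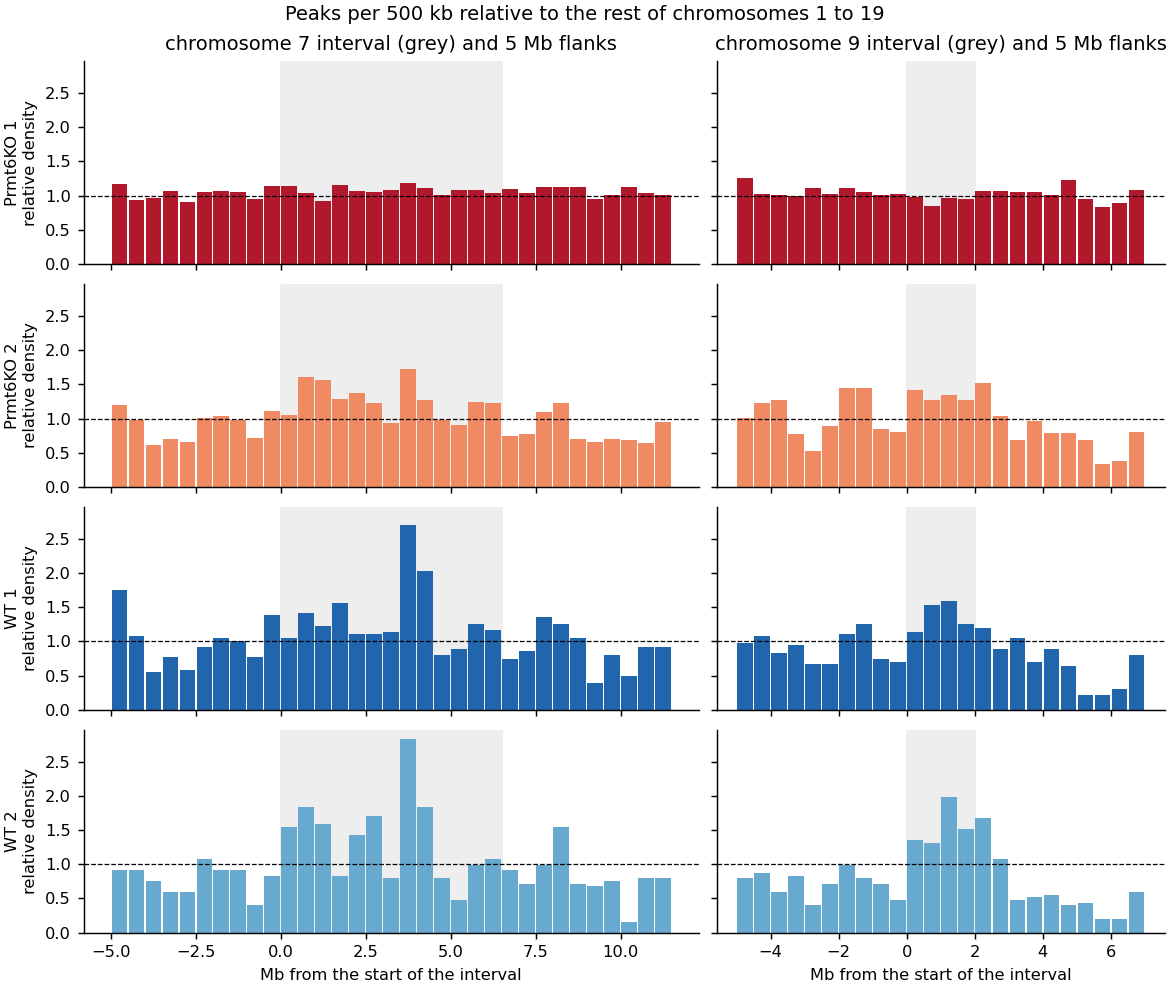
Peaks per 500 kb, relative to the mean of the rest of chromosomes 1 to 19 (dashed line), by distance from the start of each interval (grey), with the Prmt6KO libraries above the WT libraries. The bars of Prmt6KO replicate 1 run nearly level, while the other 3 libraries rise inside the grey intervals and reach 1.73, 2.70 and 2.82 in the bin that starts 3.5 Mb into the chromosome 7 interval.

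The profile along the chromosomes shows which libraries shared a pattern. Over the 57 bins of 500 kb in intervals and flanks, the relative density of Prmt6KO replicate 2 correlated with that of the WT replicates at a Pearson r of 0.775 and 0.795, and the WT replicates correlated with each other at 0.796. Prmt6KO replicate 1 correlated with the other 3 at 0.238, 0.382 and 0.154. These are descriptions over bins that share libraries and base composition, not tests. In the 14 bins inside the intervals with 10 or more Olfr genes, the median relative density was 1.04 and 1.27 in Prmt6KO, against 1.24 and 1.47 in WT. In the 37 flank bins without an Olfr gene it was 1.05 and 0.807 in Prmt6KO, against 0.859 and 0.716 in WT. The bins of the intervals were highest where Gvin1 lies, which holds no Olfr gene, with 1.19 and 1.73 in Prmt6KO against 2.70 and 2.82 in WT.

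In Igf2bp2KO the intervals were nearly empty. Replicate 1 listed 0 peaks in 8.5 Mb, which allows up to 0.434 peaks per Mb (upper end of the exact 95% interval), and replicate 2 listed 2 peaks, or 0.235 per Mb (exact 95% interval 0.0285 to 0.850). The rest of chromosomes 1 to 19 held 0.375 and 0.461 peaks per Mb in these lists, within those intervals. The flanks held 1 peak in each. With fewer than 5 peaks in a region no ratio was tested. When the WT lists were shortened to their 961 peaks of smallest p, the length of the shortest Igf2bp2KO list, the intervals held 0 and 2 peaks in Igf2bp2KO, against 2 and 3 in WT. With so few peaks a difference of the receptor intervals between Igf2bp2KO and WT was not detectable at equal list length.

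The second question was whether peaks in the receptor intervals were taller than elsewhere. The median summit was as high in the intervals as in the flanks of the same library, at 3 and 4 fragments in Prmt6KO, against 6 and 6 in WT. The tallest summits of the intervals held 11 and 11 fragments in Prmt6KO, 17 in Igf2bp2KO replicate 2, and 14 and 10 in WT. In multiples of each library's background, the mean summit in the intervals minus that in the flanks was -0.0194 ± 0.0167 in Prmt6KO and -0.227 ± 0.0255 in WT (SD, n = 2 each). The difference of 0.208 had a two-sided exact permutation p of 0.333, and without WT replicate 1 it was 0.226.

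With the chromosome 9 interval and its flanks alone this difference was 0.493, and with chromosome 7 alone it was 0.00251. A peak at Gm33838 in the left flank held 306 and 359 fragments in Prmt6KO, 347 and 337 in Igf2bp2KO, and 360 and 343 in WT. It raised the flank mean more where the list was shorter. Without summits of 50 fragments or more, interval minus flank was 0.0559 and 0.0716 multiples of background in Prmt6KO, against 0.00597 and 0.0727 in WT, a difference of 0.0245 (two-sided exact permutation p = 1, n = 2 each). This alternative was chosen after seeing the data.

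At 5 or more times the background, the interval to flank ratio exceeded in value that over all peaks in each Prmt6KO and WT library. In Prmt6KO replicate 1 it was only 1.04, against 0.997 over all peaks. Among peaks of 5 or more times the background, the interval to flank density ratio was 1.04 and 2.01 in Prmt6KO, against 2.02 and 2.57 in WT. The course was not even, since in WT replicate 1 the ratio was 1.67 under 4 times the background and 1.44 at 4 to under 5 times. Counted in fragments, the ratio of Prmt6KO replicate 1 was 1.04 at 4 or more fragments (95% interval 0.951 to 1.13) and 1.24 at 5 or more (1.05 to 1.46). At 8 or more fragments it was 0.784 in Prmt6KO replicate 1, from 3 interval peaks (0.137 to 3.14), and 3.25 in Prmt6KO replicate 2 (1.79 to 5.99). At that height it was 2.02 in WT replicate 1 (1.44 to 2.84) and 2.57 in WT replicate 2 (1.56 to 4.25). The 95% intervals of adjacent heights overlapped in each library.

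**Figure D3:**
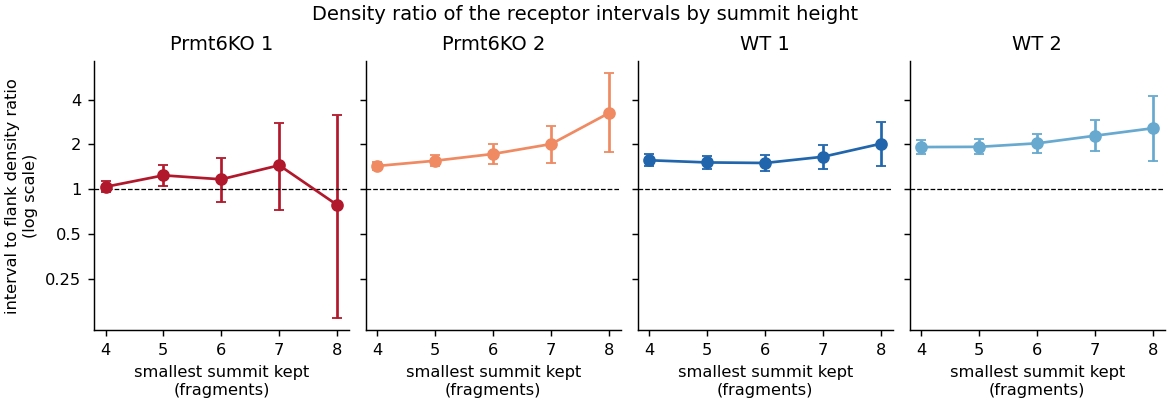
Interval to flank density ratio (log scale) among peaks with at least the number of fragments on the x axis, 1 panel per library, with exact 95% intervals for counting error. Prmt6KO replicate 1 runs between 0.784 and 1.45 with wide intervals at 7 and 8 fragments, and Prmt6KO replicate 2 reaches 3.25 at 8 fragments, against 2.02 and 2.57 in the WT replicates.

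Few of these peaks passed the authors' own adjustment, and few Prmt6KO and WT peaks did elsewhere. A q of 0.05 or below was reached by 16 and 29 interval peaks in Prmt6KO, 0 and 0 in Igf2bp2KO, and 21 and 10 in WT. In Prmt6KO replicate 2 those were 1.66% of interval peaks, against 0.737% in the flanks and 1.32% in the rest of chromosomes 1 to 19. In WT they were 2.81% and 1.66% of interval peaks, 1.87% and 0.678% of flank peaks, and 3.03% and 2.02% in the rest. In Prmt6KO replicate 1, 26 flank peaks and 3713 peaks of the rest passed, and the shares were not computed. The list scores are the authors' and are used here to describe peaks within a list. The tallest interval peak of Prmt6KO replicate 1 lay in Usp17le, a deubiquitinase gene among the receptors (chr7:104774703-104775093), with 11 fragments, and Prmt6KO replicate 2 had 8 fragments there, while no Igf2bp2KO or WT library had a peak. The tallest of Prmt6KO replicate 2, also 11 fragments, lay beyond Gvin1 (chr7:106264491-106264958), where Prmt6KO replicate 1 had 6 and WT replicate 1 had 10. On chromosome 9 it was a peak of 10 fragments over Olfr143 (chr9:38253660-38254339), where Prmt6KO replicate 1 had 3 fragments and neither WT library a peak at the same position. Within 1 kb of Olfr143, WT replicate 2 had a peak of 8 fragments. The tallest of chromosome 9 in WT lay in Vwa5a in replicate 1, with 9 fragments, and beside Panx3, a pannexin channel gene, in replicate 2, with 10, and no other library had a peak at either.

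Peaks recurred between replicates more often in the intervals than in the flanks. In Prmt6KO, 15.2% of the interval peaks of replicate 1 and 24.2% of those of replicate 2 overlapped a peak of the other replicate by at least 1 bp, against 8.67% and 19.6% of flank peaks. In WT the shares were 7.62% and 9.65% in the intervals, against 3.38% and 5.29% in the flanks. The Wilson 95% intervals of interval and flank did not overlap in any of the 4 libraries. They cover counting error only and treat peaks as independent. The 2 libraries of a genotype count the same overlaps from either side, so they are not separate comparisons. The peaks covered 91.8 and 59.1 kb per Mb of the intervals in Prmt6KO and 24.0 and 19.1 in WT. They covered 90.3 and 38.1 kb per Mb of the flanks in Prmt6KO and 14.8 and 9.64 in WT. The coverage of the other replicate can add to such overlaps, and its part was not tested. That coverage was nearly level only for the peaks of Prmt6KO replicate 2, at 91.8 kb per Mb in the intervals and 90.3 in the flanks. For the peaks of Prmt6KO replicate 1 it was 59.1 against 38.1. For those of WT replicate 1 it was 19.1 against 9.64, and for those of WT replicate 2 it was 24.0 against 14.8. Of the 418 peaks of Prmt6KO replicate 1 that recurred in replicate 2, WT replicates 1 and 2 had a peak at 45 and 26. Of the 57 such peaks of WT, Prmt6KO replicates 1 and 2 each had a peak at 18. These counts between genotypes were not made for the flanks or the rest of the genome.

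Overlapping peaks of the 6 lists were merged into regions by chaining, so the libraries seen in a region need not share a position. Counted over the Prmt6KO and WT libraries, the intervals held 4173 regions seen in 1 library, 652 in 2, 77 in 3 and 21 in all 4. Regions were not merged outside the intervals, so no share elsewhere stands beside these counts. Of the 21, 2 also had a peak in Igf2bp2KO replicate 2. The taller lay 20641 bp from Olfr596, between class I receptors (chr7:103287953-103289082). It held 7 and 7 fragments in Prmt6KO, 17 in Igf2bp2KO replicate 2 and none in replicate 1, and 14 and 9 in WT. It was the tallest interval peak of both WT replicate 1 and Igf2bp2KO replicate 2, and the first of the replicated WT peaks. A region 10226 bp from Olfr585 held 4 and 7 fragments in Prmt6KO, against 10 and 7 in WT. The region of chromosome 9 nearest Olfr923 held 5 and 6 in Prmt6KO, against 7 and 8 in WT. Of the 21 regions, 11 lay between chr7:106180240 and chr7:106277194, from Gvin1 towards Gm8989. Of these 11, 1 (chr7:106276012-106277194) was the other region with a peak of Igf2bp2KO replicate 2. It held 12 fragments there, 4 and 5 in Prmt6KO and 7 and 5 in WT. The Igf2bp2KO peak itself overlapped peaks of Prmt6KO replicate 2 and WT replicate 2 alone.

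Between the receptors of chromosome 7 lie blocks of other genes with densities of their own. The block from Gm4070 to Gm1966 holds Gvin1 and its relatives, very large interferon-inducible GTPases that are not receptors (chr7:105895118-106644646). Its density relative to the rest of chromosomes 1 to 19 was 1.13 and 1.56 in Prmt6KO, against 2.70 and 2.47 in WT, and the groups did not overlap. The receptor stretches of chromosome 7 had 1.05 and 1.30 in Prmt6KO, against 1.24 and 1.36 in WT. Those of chromosome 9 had 0.941 and 1.34 in Prmt6KO, against 1.38 and 1.57 in WT. These blocks were compared as values, with no test.

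Of the 5 listed GTPase genes, all 5 had a peak in each Prmt6KO library within 1 kb of the gene, and 4 did in each WT library. Over all protein-coding genes, 92.4% and 75.4% had one in Prmt6KO, against 55.8% and 48.8% in WT. Gvin1 carried 25 and 18 peaks in Prmt6KO and 9 and 11 in WT, with tallest summits of 5 and 5 fragments in Prmt6KO and 7 and 8 in WT. Gm1966 carried 17 and 8 peaks in Prmt6KO and 11 and 2 in WT. The Trim genes, which encode antiviral ubiquitin ligases such as Trim5 and Trim30a, had a block density of 1.21 and 1.29 in Prmt6KO, against 1.49 and 1.24 in WT. Of the 13 listed, 13 and 12 had a peak in Prmt6KO, against 12 and 7 in WT, beside those shares of all genes. Trim21, the cytosolic antibody receptor, had 4 fragments in Prmt6KO replicate 1 and none in replicate 2, against 11 and none in WT.

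The beta-globin genes sit in the midst of the class I receptors. The short block from Hbb-bt to Hbb-y held 13 and 11 peaks in Prmt6KO, against 1 and 5 in WT. Its relative density was 1.03 and 1.68 in Prmt6KO, against 0.377 and 2.44 in WT, so that the WT values lay on either side of both Prmt6KO values. Of its 5 genes, 3 and 3 had a peak in Prmt6KO and 1 and 1 in WT, where 92.4% and 75.4% of all genes did in Prmt6KO and 55.8% and 48.8% in WT. Hbb-bs, an adult beta-globin gene, had 3 and 5 fragments in Prmt6KO, against none and 5 in WT. Hbb-y, an embryonic one, had none in either Prmt6KO library, against 6 and none in WT.

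Other blocks hold mixed genes, widely expressed ones among them, and had lower density values than the receptor stretches in both WT libraries. The block from Fam160a2 to Mrpl17 had a relative density of 1.04 and 0.776 in Prmt6KO, against 0.942 and 0.588 in WT. That from Syt9 to Ovch2 had 1.14 and 0.821 in Prmt6KO, against 0.677 and 0.554 in WT. Of 7 listed blood or housekeeping genes in the intervals, 7 and 4 had a peak in Prmt6KO and 1 and 1 in WT, where the shares of all genes were 92.4% and 75.4% in Prmt6KO and 55.8% and 48.8% in WT. The gene hit in WT was Rrm1, the large subunit of ribonucleotide reductase, with 5 and 5 fragments there and 4 and 5 in Prmt6KO. Ilk, an integrin-linked kinase, had 3 and 5 fragments in Prmt6KO and Tpp1, a lysosomal protease, had 3 and 4, and neither had a peak in WT. Of the 6 listed genes in the flanks, among them the calcium sensor Stim1 and the mitotic kinase Wee1, 6 and 4 had a peak in Prmt6KO and 4 and 4 in WT. No listed gene had a peak in Igf2bp2KO.

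**Figure D4:**
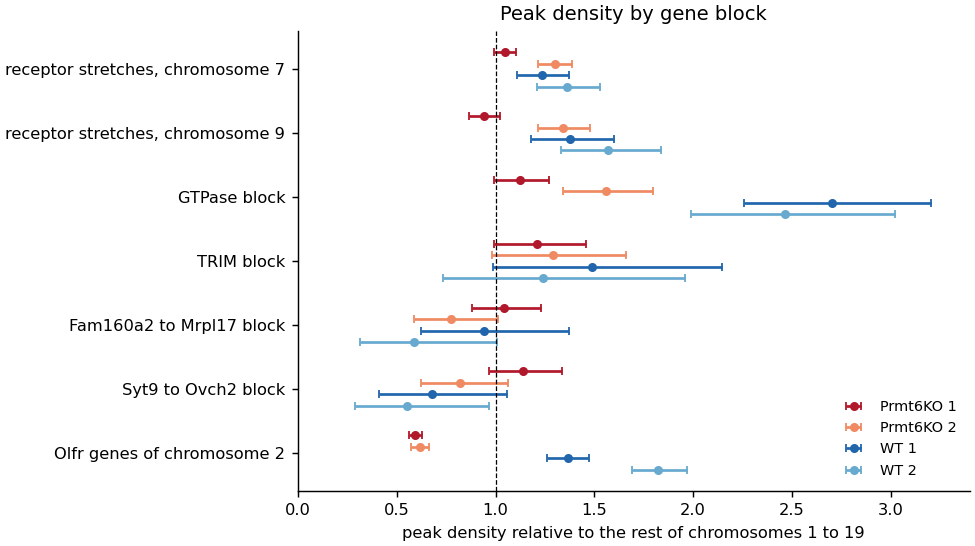
Peak density of gene blocks relative to the rest of chromosomes 1 to 19 (dashed line at 1), per library, with exact 95% intervals for counting error. The GTPase block stands at 1.13 and 1.56 in Prmt6KO and at 2.70 and 2.47 in WT, and the Olfr genes of chromosome 2 stand at 0.593 and 0.618 in Prmt6KO and at 1.37 and 1.82 in WT.

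The receptor genes of chromosome 2 did not share the Prmt6KO densities of those on chromosomes 7 and 9. Their stretches held 183 and 99.5 peaks per Mb in Prmt6KO, against 89.0 and 91.7 in WT. The stretches of chromosomes 7 and 9 held 313.5 and 211 in Prmt6KO, against 83.4 and 71.8 in WT. The ratio of chromosomes 7 and 9 to chromosome 2 was 1.71 and 2.12 in Prmt6KO, against 0.938 and 0.782 in WT. Chromosome 2 was set apart with its densities in these lists known, so this contrast is a description, with no test. The rest of chromosome 2 held 255 and 115 peaks per Mb in Prmt6KO, where the rest of chromosomes 1 to 19 held 309 and 161, and its part in the ratio was not tested. The other Olfr genes outside chromosome 2 had relative densities of 1.06 and 1.25 in Prmt6KO, against 1.21 and 1.28 in WT, next to the values of the chromosome 7 stretches.

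The third question was which receptor genes carried a peak. More did in Prmt6KO than in WT, and none did in Igf2bp2KO. A peak within 1 kb of the gene was present at 67.6% and 51.9% of the 262 Olfr genes in Prmt6KO, 0% and 0% in Igf2bp2KO (Wilson 95% upper limit 1.45%), and 24.4% and 28.6% in WT. The mean was 59.7% ± 11.1 in Prmt6KO and 26.5% ± 2.97 in WT (SD, n = 2 each), a difference of 33.2 percentage points (two-sided exact permutation p = 0.333, the smallest possible). Igf2bp2KO differed from WT by -26.5 percentage points with the same p. Without WT replicate 1 the differences were 31.1 percentage points in Prmt6KO and -28.6 in Igf2bp2KO.

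Both differences moved with the length of the lists. Cut to the 133960 peaks of smallest p in each list, Prmt6KO had a peak at 20.2% of the Olfr genes on average and WT at 25.4%, a difference of -5.15 percentage points (two-sided exact permutation p = 0.667, n = 2 each). Cut to 961 peaks, Igf2bp2KO and WT both had a peak at 0%. With peaks of a q of 0.05 or below alone, the mean was 0.763% in Prmt6KO, 0% in Igf2bp2KO and 0.382% in WT. The receptor genes are short, with a median of 951.5 bp, and 82.1% of them have a length that is a multiple of 3, as models of coding sequence alone would. Over all 21631 protein-coding genes, whose windows are longer, 92.4% and 75.4% had a peak in Prmt6KO, 0.430% and 0.596% in Igf2bp2KO, and 55.8% and 48.8% in WT.

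Windows of equal length removed that inequality. In 3 kb centred on the gene start, 62.7% and 46.9% of the 228 receptor windows had a peak in Prmt6KO, against 22.4% and 21.1% in WT. Of the 32391 windows of all other genes, 63.0% and 29.6% had one in Prmt6KO, against 14.2% and 8.78% in WT. Receptor gene starts were therefore hit more often than other gene starts in Prmt6KO replicate 2 and in both WT libraries, and as often, within 1 percentage point, in Prmt6KO replicate 1. This describes windows of 1 library at a time and was not tested. The 720 other Olfr genes had 55.0% and 43.1% in Prmt6KO, against 21.7% and 23.2% in WT. The receptor genes of the 2 intervals and the rest of their family thus had WT shares between 21.1% and 23.2%.

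**Figure D5:**
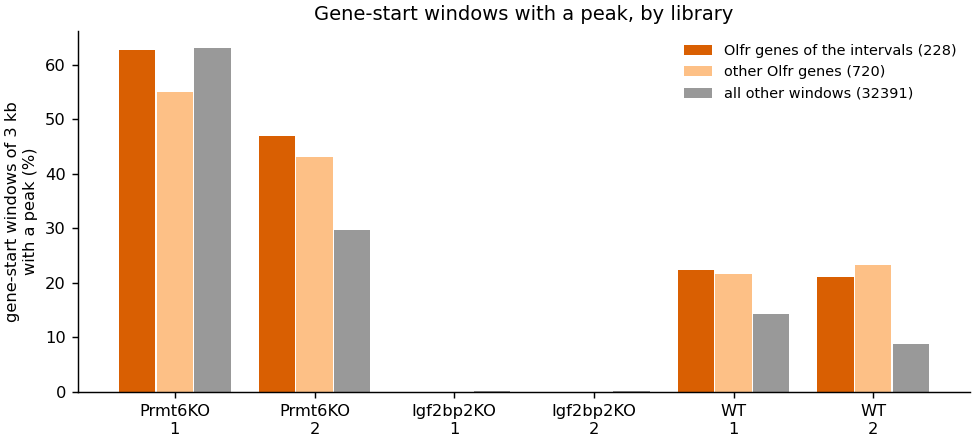
Share of gene-start windows of 3 kb with at least 1 peak, per library, for the 228 Olfr genes of the intervals, 720 other Olfr genes and 32391 other windows. Receptor starts stand at 62.7% and 46.9% in Prmt6KO, at 0% in Igf2bp2KO, and at 22.4% and 21.1% in WT, where the other windows stand at 14.2% and 8.78%.

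Class I and class II receptors of chromosome 7 had like shares within each library. Among the 126 genes on the globin side of chromosome 7, from Olfr543 to Olfr692, 73.0% and 51.6% had a peak in Prmt6KO, against 22.2% and 27.0% in WT. Among the 67 genes farther along, from Olfr693 to Olfr519, 71.6% and 53.7% did in Prmt6KO, against 23.9% and 26.9% in WT. Among the 69 of chromosome 9, 53.6% and 50.7% did in Prmt6KO, against 29.0% and 33.3% in WT. Chromosome 9 was thus the lowest of the 3 stretches in both Prmt6KO libraries and the highest in both WT libraries.

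Whether peaks lay on the receptor genes or between them went different ways with the library, the chromosome and the window. On the log2 scale, the density of summits in the Olfr genes with 1 kb either side, divided by that in the rest of the intervals, was -0.11 and -0.10 in Prmt6KO, against -0.37 and 0.14 in WT. The difference of the means was 0.01 (two-sided exact permutation p = 1, n = 2 each), and without WT replicate 1 it was -0.24. With the gene alone, the values were 0.19 and 0.15 in Prmt6KO, against -0.42 and -0.24 in WT, with no overlap. That difference was 0.50 (two-sided exact permutation p = 0.333, n = 2 each), and 0.41 without WT replicate 1. On chromosome 9 alone, with 1 kb either side, the values were -0.44 and -0.27 in Prmt6KO, against -0.02 and 0.23 in WT, a difference of -0.46 (two-sided exact permutation p = 0.333, n = 2 each). Where a receptor gene had a peak, its tallest summit had a median of 3 and 5 fragments in Prmt6KO, against 6 and 6 in WT. In multiples of each library's background these medians were 4.07 and 4.14 in Prmt6KO, against 4.11 and 4.17 in WT, so that the values of the groups overlapped.

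Few receptor genes were hit in both libraries of a genotype. In Prmt6KO, 97 of the 262 were (37.0%), where 73% of all protein-coding genes were. In WT, 18 were (6.87%), where 38.6% of all genes were. In Igf2bp2KO, 0 were, where 0.356% of all genes were. In the equal windows at the gene start, 31.1% of the receptors were hit in both Prmt6KO libraries against 19.9% of all windows, and 3.07% in both WT libraries against 2.15%, with 0 in Igf2bp2KO against 0.0981%. Being hit in both libraries did not mean being hit at the same place. The peaks of both libraries overlapped at 39 of the 97 genes in Prmt6KO and at 0 of the 18 in WT. Peaks covered 91.8 and 59.1 kb per Mb of the intervals in Prmt6KO, against 24.0 and 19.1 in WT. The part of this coverage in the overlaps was not tested. Over the Prmt6KO and WT libraries together, 30 receptor genes had no peak, 77 had one in 1 library, 102 in 2, 41 in 3 and 12 in all 4. The counts of overlapping places and of libraries per gene were made for receptor genes alone, not for all genes.

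The 12 genes with a peak in all 4 libraries were Olfr78, Olfr561, Olfr618, Olfr64, Olfr633, Olfr646, Olfr702 and Olfr487 on chromosome 7 and Olfr884, Olfr916, Olfr27 and Olfr44 on chromosome 9. Olfr78, a receptor for short-chain fatty acids that is also expressed outside the nose, had tallest summits of 4 and 5 fragments in Prmt6KO, against 5 and 5 in WT. Olfr702 had 4 and 7 in Prmt6KO, against 9 and 6 in WT. Olfr487 had 3 and 7 in Prmt6KO, against 7 and 7 in WT. In fragments, the values of the groups met or overlapped at these 3 genes. In multiples of background they overlapped at Olfr702 and Olfr487. Olfr78 had 5.43 and 4.14 in Prmt6KO, against 3.42 and 3.48 in WT, with no overlap. Its tallest summit was taken from 8 and 3 peaks in Prmt6KO, against 1 and 1 in WT. Among the 12, the groups were also apart at Olfr561 and Olfr44, and they overlapped at the rest. None of the 12 had a peak in Igf2bp2KO.

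By the rule for named genes, the leading receptors of Prmt6KO were Olfr631, Olfr502, Olfr701, Olfr702, Olfr508, Olfr561, Olfr582, Olfr586, Olfr593 and Olfr658. The first 4 ranked above the rest. The other 6 were taken in symbol order from 9 genes level at 4.96 times the background, which also include Olfr700 on chromosome 7 and Olfr904 and Olfr943 on chromosome 9. Olfr631 (chr7:103915062-103930666), just past the globin genes, had 5 and 8 fragments in Prmt6KO, at overlapping positions, against 6 and none in WT. Olfr502 (chr7:108523004-108523948) had 4 and 7 in Prmt6KO, also overlapping, and none in either WT library. The leading receptors of WT were Olfr487, Olfr702, Olfr25, Olfr27, Olfr473, Olfr633, Olfr646, Olfr920, Olfr504 and Olfr618, the last 2 level with Olfr64 and Olfr916. Their tallest WT summits held 5 to 9 fragments, and 6 of the 10 had a peak in both Prmt6KO libraries.

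Receptor genes hit in both Prmt6KO libraries and in neither WT library numbered 50 (19.1%), a share near the 15.3% of all protein-coding genes that were. The first of them were Olfr502, Olfr701, Olfr582, Olfr593, Olfr658 and Olfr943, with tallest summits of 4 fragments in replicate 1 and 6 or 7 in replicate 2. The opposite case, both WT libraries and neither Prmt6KO library, held 0 receptor genes and 0.157% of all genes. All 18 receptors hit in both WT libraries had no peak in Igf2bp2KO. The same was true of 98.4% of the 8342 protein-coding genes hit in both WT libraries. As a share of all genes of each kind these were 6.87% of the receptors and 38% of the protein-coding genes. No gene, receptor or other, was hit in both Igf2bp2KO libraries and in neither WT library. The first of these 18 receptors were Olfr487, Olfr702, Olfr25, Olfr27, Olfr473 and Olfr633, of which the last 4 were taken in symbol order from genes level in rank.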

How the data were processed

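H3R2me2a ChIP-seq peak lists of 6 libraries were analysed. Tools named in the submitters' processing notes, without settings, are HISAT2, Trim Galore, bcl2fastq 2.17, bedtools and MACS2 2.1.0, with build mm10. Per the file headers, each deposited list gives, per peak, the summit pileup (a coverage signal), the fold enrichment (a ratio to background) and the -log10 of its p-value and q-value. The lists are per library, not pooled. Pileups were divided by their step in each list, which was 1 in Prmt6KO, 0.277 and 0.302 in Igf2bp2KO and 1 in WT, and this step was read as 1 fragment. No header or label says how the Igf2bp2KO pileups were scaled, so its values in fragments rest on that reading. The background was recovered from the fold enrichments. Peaks were assigned by start, and chromosomes 1 to 19 served as the rest of the genome. Genes came from the RefSeq table of GRCm38.p6 (mm10), and a gene was hit when a peak overlapped it or the 1 kb either side by at least 1 bp. Groups came from the sample titles. Values were computed per library and compared by two-sided exact permutation tests (Python 3.11.15, numpy 2.4.6, pandas 2.3.3, scipy 1.17.1), in which 2 libraries against 2 give no p below 0.333. A region with fewer than 5 peaks gave no test. Named receptors were the first 10 per genotype hit in both libraries, ranked by the lower of the 2 best summits in multiples of background, and the first 6 gained or lost, with ties in symbol order. Scripts were tested on simulated data. The members, lists and tests were chosen with earlier results of these data known. No genome sequence was used here, so the bases under peaks outside the start windows were not read.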

Additional observations from a re-analysis of the deposited data

How the results depend on the processing

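The density difference between Prmt6KO and WT kept its sign under the 15 alternatives run, at -0.81 to -0.26. Leaving out 1 library gave -0.80 to -0.26. The groups overlapped at equal list length, at 4 times background or more, at 5 fragments or more, and on chromosome 7 alone. They also did at 4-fold enrichment or more and at q to 0.05. They stayed apart on chromosome 9 alone, with flanks of 2.5 Mb, against the rest of chromosomes 1 to 19, and in bases covered. The height difference of 0.208 became -0.00507 at equal list length and 0 with median summits, was 20.1 among peaks of 4-fold enrichment or more and 14.1 among those with q to 0.05, where few peaks are left, and leaving out 1 library gave 0.190 to 0.226. The difference in Olfr genes hit was -5.15 percentage points in Prmt6KO and 0 in Igf2bp2KO at equal list length. Leaving out 1 library gave 25.4 to 41.0 percentage points in Prmt6KO and -28.6 to -24.4 in Igf2bp2KO. The density difference in Olfr gene windows was 0.01, and it was -0.0245 at equal list length, -0.46 for chromosome 9 alone, -0.13 with 2.5 kb either side and -0.24 to 0.27 when 1 library was left out. The cause of these changes was not tested. Without summits of 50 fragments or more, the Gm33838 peak among them, the height difference was 0.0245. Peaks of at least 5 fragments, summits under 50 fragments and the 3 kb start windows were alternatives chosen after seeing the data.

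The replicate block gave the same differences, -0.53 for density, 0.208 for height, 33.2 and -26.5 percentage points for Olfr genes hit in Prmt6KO and Igf2bp2KO, and 0.01 for Olfr gene windows, with an exact p of 0.5 (the smallest for 2 pairs) for each but the Olfr gene windows, where p was 1. Same-numbered libraries of Prmt6KO and WT deviated together over 2414 bins of 1 Mb (r = 0.534), but 2 pairs share only a number. For Igf2bp2KO the density, height and Olfr window differences could not be computed, and at a fold of at least 4 or a q of 0.05 the Olfr window difference of Prmt6KO could not either. The Igf2bp2KO lists start at 8 and 7 fragments, so lower peaks are not in them.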
